A study of Zea mays subsp. mays x Zea mays subsp. mexicana with 20 samples.

Results

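The outer 5 Mb at either end of maize chromosomes 1 to 4 and 6 to 9 held 2515 small RNA loci, described here in pollen of 3 *Dcl2* genotypes. A locus here is a genomic interval over which aligned small RNA reads were grouped. The end loci were chosen by position and by a minimum of 15 reads summed over the 6 libraries. Of 4362 loci in these 16 end windows, 2515 reached that minimum and 1847 did not, 492 of them without a single read. The rest of the same 8 chromosomes held 33918 loci of at least 15 reads, and the whole table held 85421 loci of any count. The far end of a chromosome was set at the largest coordinate of any locus on it, because no reference sequence was used.

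In dcl2-mu1 plants, of W22 background, both copies of *Dcl2* had a *Mu* transposon inserted in the leader. Homozygous dcl2T plants carried the *Dcl2* allele of teosinte *mexicana*, which maps to the short arm of chromosome 5, in a lineage backcrossed to the inbred W22. The study describes that allele as partially functional and as lying in a longer *mexicana* interval, so the allele and other introgressed sequence cannot be told apart. It also reports further *mexicana* intervals retained in lines of this backcross lineage, some on chromosomes analysed here, including chromosome 6. Whether these dcl2T plants carried them is not given. Plants called Dcl2 carried the functional allele. Each genotype had 2 libraries from separate biological replicates of pollen, and the other 14 of the 20 deposited samples are not analysed here. Total counts were 1950081 and 4083990 in dcl2-mu1, 4357765 and 4920576 in dcl2T, and 3966305 and 4392281 in Dcl2. The shallowest library, dcl2-mu1 replicate 1, had no read at 58.5% of the end loci, against 8.47% to 24.1% in the other 5 libraries. With every library thinned at random to that depth, 41.5% of end loci had a read in dcl2-mu1 replicate 1. The figure was 71.5% in dcl2-mu1 replicate 2 and 73.4% to 85.5% in the dcl2T and Dcl2 libraries. The cause of this difference was not tested. Counts cover all read lengths together. In such bulk pollen, fewer cells of a type and less RNA per cell cannot be told apart.

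Maize chromosome arms are rich in genes towards their ends, where recombination is frequent, and long stretches around the centromeres are filled with nested retrotransposons. Plant small RNAs of several kinds differ in where they arise. SiRNAs of the RNA-directed DNA methylation pathway often sit at transposons beside genes, and DCL2, a Dicer-like ribonuclease, cuts siRNAs from hairpin transcripts and from double-stranded RNA copied by RDR6. The deposited table pairs no locus with a gene or transposon, so the loci below are named by cluster number and position, in the coordinates of that table.

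Small RNA loci were denser at the chromosome ends than elsewhere. The end windows covered 80 Mb, 4.57% of the 1749.1 Mb spanned by the 8 chromosomes, and held 6.90% of the loci of at least 15 reads. This was 31.4 loci per Mb at the ends and 20.3 per Mb in the rest, a ratio of 1.55. Without the read minimum the densities were 54.5 and 39.3 per Mb. The ends thus had more listed loci of any count, and a larger share of them reached 15 reads, 57.7% against 51.8% in the rest. The densities without a minimum describe the loci that the table lists, including those without a read. The distance from one locus to the next had a median of 12.5 kb at the ends and 20.8 kb elsewhere, and loci covered 5.08% of the end windows and 3.07% of the rest.

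The excess was found on all 8 chromosomes but not at all of their ends. Of the 16 ends, 15 were denser than the remainder of their own chromosome. The exception, the start of chromosome 6, had 17.2 loci per Mb, below the 20.8 per Mb of the rest of that chromosome. The densest end was the start of chromosome 4, with 45.8 loci per Mb against 19.3 in the rest, 2.38 times as many. Next came the far end of chromosome 8 with 41.4 and the far end of chromosome 9 with 40.8. As a yardstick, 330 windows of 5 Mb laid along the rest of these chromosomes held between 7.4 and 38 loci per Mb with a median of 19.8. Only those 3 ends therefore lay above the densest of these windows.

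**Figure D1:**
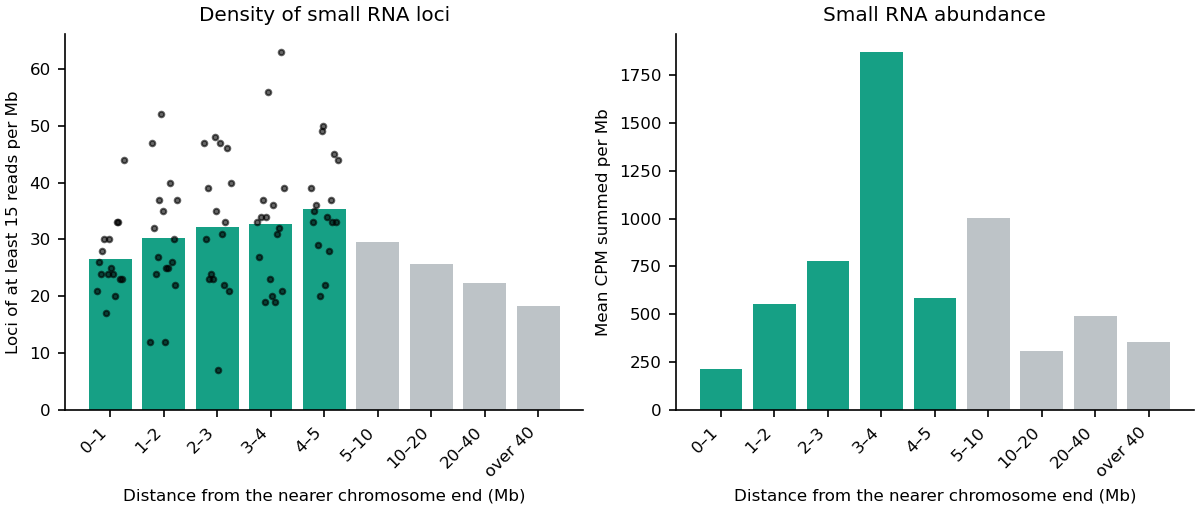
Left, loci of at least 15 reads per Mb against the distance in Mb from the nearer chromosome end; bars are the 8 chromosomes together, points are the 16 single ends, green bars are the outer 5 Mb and grey bars the rest. Right, mean CPM (the count as a share of the library total, scaled up by a constant) summed per Mb over the same distances. Density was 26.6 in the outermost Mb, 35.4 in the fifth Mb and 18.3 beyond 40 Mb, while abundance was highest from 3 to 4 Mb.

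Density did not peak at the very tip. It was 26.6, 30.2, 32.3, 32.8 and 35.4 loci per Mb in the first to the fifth Mb from the end, and then 29.5 from 5 to 10 Mb, 25.8 from 10 to 20 Mb, 22.3 from 20 to 40 Mb and 18.3 beyond 40 Mb. Density thus climbed inwards through the outer 5 Mb and declined after it. On either side of that line, the 16 members nearest to it had lengths from 239 to 3220 bp and a median mean CPM of 2.62. The 16 loci just outside ranged from 350 to 3336 bp and had a median of 1.90 CPM. At the read minimum, 66 end loci had exactly 15 reads and 68 had 14.

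The outermost member of each end lay between 0 and 180.1 kb from the end, with a median of 22.9 kb, and these loci were mostly sparse. Their mean abundance ranged from 0.627 to 31.5 CPM with a median of 1.42, and 7 of the 16 had enough counts for a test between genotypes. The most abundant of them was Cluster_22546 (chr2:244222781-244225723), which itself sets the far end of chromosome 2. Its CPM was 37.4 and 39.9 in dcl2-mu1, 17.2 and 29.7 in dcl2T, and 17.6 and 47.1 in Dcl2, so the dcl2-mu1 values lay within the range of Dcl2 and those of dcl2T overlapped it. At the opposite extreme, Cluster_2 (chr1:7281-8119), the first member of chromosome 1, held 15 reads in all, 7 of them in dcl2T replicate 1.

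End loci were slightly longer than the rest. Median length was 1270 bp at the ends, with quartiles of 747 and 2012.5 bp, and 1181 bp in the rest, with quartiles of 699 and 1883 bp. The longest end locus spanned 25572 bp, and the longest elsewhere 29671 bp. Of the 16 ends, 13 had a longer median than the rest of their chromosome, and medians ran from 1115 bp at the start of chromosome 8 to 1428 bp at the far end of chromosome 4. Length classes above 1 kb took a larger share of end loci than of the rest, and classes below 1 kb a smaller share. At 1 to 2 kb the shares were 37.6% and 36.5%. Loci of 2 to 5 kb made up 22.7% of end loci and 20.0% of the rest, and those of 500 to 1000 bp made up 23.3% and 26%. Most small RNA came from the longer loci, at the ends and in the rest. In a given library, those of 1 to 2 kb held 24.7% to 32.4% of the end counts and those of 2 to 5 kb held 31.1% to 40.6%. In the rest these classes held 15.1% to 20.4% and 23.4% to 30.7%. Loci over 5 kb held 24.3% to 31.0% of the counts at the ends and a larger share, 34.2% to 43.6%, in the rest.

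A typical end locus was barely more abundant than a typical locus elsewhere. The median of mean CPM was 1.70 at the ends and 1.57 in the rest, a ratio of 1.08. Within single libraries the 2 medians were equal in 5 of 6, and in dcl2T replicate 2 they were 2.03 CPM at the ends and 1.83 CPM in the rest. One read was worth 0.203 to 0.513 CPM, so such medians stand for only a few reads. Medians were higher than in the rest of the chromosome at 11 of the 16 ends.

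Abundant loci, in contrast, were over-represented. Loci with a mean of at least 50 CPM numbered 104 at the ends, 4.14% of the members, and 747 in the rest, 2.20%. Their density was 1.30 per Mb at the ends and 0.448 per Mb in the rest, 2.90 times as high at the ends. Summed small RNA came to 800 CPM per Mb of end window and 407 CPM per Mb of the rest. The neighbouring belt from 5 to 10 Mb was higher still, at 1001 CPM per Mb, with 3.18% of its loci at 50 CPM or more, so this abundance was not particular to the outer 5 Mb. Within the ends it was concentrated in few loci, the 10 most abundant members holding 44.3% to 51.8% of the end counts of a library. The corresponding 10 loci in the rest held 25.2% to 35.6% of its counts. Within the ends, summed abundance was 213 CPM per Mb in the outermost Mb and 1870 CPM per Mb from 3 to 4 Mb.

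The start of chromosome 4 carried much of that sum. As many as 4 members of over 1000 CPM each lay there within 1.19 Mb and together held 17.0% to 28.8% of all end counts of a library. The most abundant member of all was Cluster_32211 (chr4:3181278-3182309), at 3535 and 4067 CPM in dcl2-mu1, 5812 and 5755 CPM in dcl2T, and 4853 and 3746 CPM in Dcl2. Both dcl2T libraries lay above the other 4, and those of dcl2-mu1 and Dcl2 overlapped. Cluster_32205 (chr4:3098759-3100443), the next of them outward, had 3131 and 5422 CPM in dcl2-mu1, 4808 and 5022 CPM in dcl2T, and 4769 and 3953 CPM in Dcl2. Its dcl2-mu1 libraries spanned all the others. The remaining 2, Cluster_32120 (chr4:1989893-1991438) and Cluster_32198 (chr4:3016444-3024261), averaged 3123 and 3047 CPM over the 6 libraries. In dcl2-mu1 replicate 1 both were at their lowest, 1795 and 1615 CPM.

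Elsewhere the most abundant members stood singly. Cluster_50987 (chr6:3755212-3757634) averaged 3712 CPM in a window whose summed mean was 4042 CPM, the one end that was poor in loci. Cluster_22404 (chr2:241157413-241171578), a locus of 14166 bp, averaged 3703 CPM and was among the steadiest, at 3889 and 3504 CPM in dcl2-mu1, 3766 and 3567 CPM in dcl2T, and 3504 and 3987 CPM in Dcl2. Its genotypes overlapped throughout. Cluster_12499 (chr1:306384281-306388408) averaged 2537 CPM and Cluster_31828 (chr3:238487642-238495295) 2257 CPM. For Cluster_12499 the values were 3167 and 2764 CPM in dcl2-mu1, 2603 and 2498 CPM in dcl2T, and 2099 and 2090 CPM in Dcl2. In CPM there was no overlap between any of the genotypes. After the scaling used for the test, its log2 fold change was 0.12 for dcl2T over Dcl2 and 0.12 for dcl2-mu1 over Dcl2. For dcl2-mu1 over dcl2T it was 0.00, so that separation depends on the scaling. None of the 8 most abundant members passed the edgeR test in any comparison, and the lowest Benjamini-Hochberg adjusted p among them was 0.224. Their fitted log2 fold changes ran from -0.19 to 0.25 for dcl2T over Dcl2, from -0.96 to 0.12 for dcl2-mu1 over Dcl2 and from -1.17 to 0.00 for dcl2-mu1 over dcl2T.

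At the other ends the most abundant member ranged down to 75.5 CPM, for Cluster_72307 (chr9:3431103-3434719) at the start of chromosome 9. This locus had 48.7 and 47.0 CPM in dcl2-mu1, 109.0 and 123.8 CPM in dcl2T, and 73.1 and 51.2 CPM in Dcl2. The 3 genotypes did not overlap, dcl2-mu1 being lowest and dcl2T highest. It passed the edgeR test in none of the comparisons, and its lowest adjusted p was 0.161, for dcl2-mu1 over dcl2T. Over all 16 ends, the most abundant member had a median of 1170 CPM and lay between 334.4 and 4537 kb from the end.

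**Figure D2:**
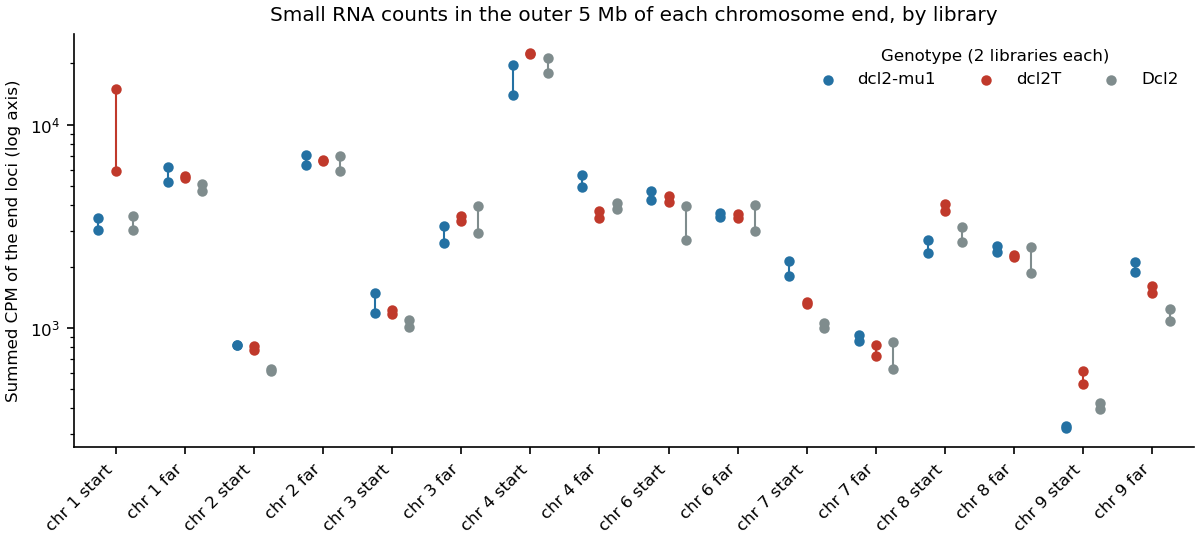
Summed CPM of the end loci (log axis) at each of the 16 chromosome ends, start and far, with 1 point per library and a line joining the 2 libraries of a genotype; dcl2-mu1 is blue, dcl2T red and Dcl2 grey. The start of chromosome 4 is highest in every library, and the largest distance between genotypes is at the start of chromosome 1, where dcl2-mu1 had 3041 and 3451 CPM, dcl2T 14979 and 5897 CPM, and Dcl2 3530 and 3040 CPM.

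The ends took a larger share of small RNA in dcl2T pollen than in the other genotypes. Of the counts on the 8 chromosomes, end loci held 7.66% (Wilson 95% interval, 7.62 to 7.71) and 8.17% (8.14 to 8.20) in dcl2-mu1. The share was 10.4% (10.4 to 10.5) and 9.33% (9.30 to 9.36) in dcl2T, and 7.75% (7.72 to 7.78) and 7.97% (7.94 to 8.00) in Dcl2. These intervals cover counting error within 1 library only, not the spread between replicates. Reads copied by PCR are not independent molecules, so even that error may be understated. Means were 7.92% ± 0.359 for dcl2-mu1, 9.87% ± 0.768 for dcl2T and 7.86% ± 0.154 for Dcl2 (SD, n = 2 each). Both dcl2T libraries lay above the other 4, at 1.26 times Dcl2, whereas dcl2-mu1 and Dcl2 overlapped at a ratio of 1.01.

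A single group of 4 neighbouring loci on chromosome 1, described below, held 15.3% and 3.75% of the end counts in the dcl2T libraries. Without it, the shares were 7.66% and 8.16% in dcl2-mu1, 8.97% and 9.01% in dcl2T, and 7.73% and 7.96% in Dcl2, and the ratio of dcl2T to Dcl2 was 1.15. None of the 10 most abundant loci of the table is an end locus, and 7 of them lie on the 8 chromosomes. With those 10 left out the ratio was 1.12, with chromosome 8 left out 1.13, with windows of 2 Mb 1.09 and with windows of 10 Mb 1.13. The dcl2T share was therefore higher under each of these settings taken singly, by a smaller margin. Leaving out both the group of 4 loci and the 10 most abundant loci was not tested. In the rest, the 10 most abundant loci held 27.4% and 25.2% of the counts in dcl2T, and 35.6% and 33.1% in Dcl2. With 2 libraries against 2, no exact two-sided permutation test can go below 0.33, and no test was applied to a share.

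**Figure D3:**
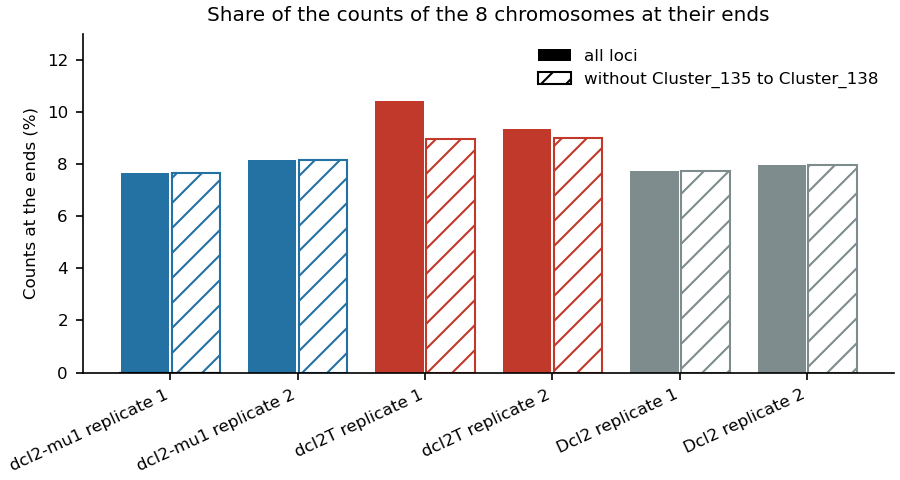
Percentage of the counts on the 8 chromosomes that fell at their ends, for each library; filled bars are all end loci and hatched bars leave out Cluster_135 to Cluster_138. The dcl2T bars reach 10.4% and 9.33% with these 4 loci and 8.97% and 9.01% without them, and the other 4 libraries stay between 7.66% and 8.17% either way.

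Taken end by end, summed CPM in dcl2T exceeded Dcl2 at 15 of 16 ends, the far end of chromosome 4 being lower at a ratio of 0.904. Both dcl2T libraries lay above both Dcl2 libraries at 10 ends and below them at 1. This pattern was not particular to the ends: dcl2T lay wholly above Dcl2 in 50.6% of the 330 windows of 5 Mb elsewhere, and the median ratio was 1.14 over the ends and 1.15 over those windows. The largest ratio was 3.18 at the start of chromosome 1, and without the group of 4 loci that end had a ratio of 1.05. For dcl2-mu1 over Dcl2, 11 of 16 ends had a ratio above 1, with a median of 1.14 over the ends and again 1.14 over the windows.

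The widest span for dcl2-mu1 ran from 0.788 at the start of chromosome 9 to 1.92 at the start of chromosome 7. At the start of chromosome 9, the sums were 324 CPM on average in dcl2-mu1 and 411 CPM in Dcl2, and both dcl2-mu1 libraries lay below both of Dcl2. At the start of chromosome 7 they averaged 1961 CPM in dcl2-mu1 and 1023 CPM in Dcl2. Without Cluster_57956, described below, the ratio there was 1.49. The far end of chromosome 9 had a ratio of 1.73, which was 1.26 without Cluster_78801.

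Differences at single loci were tested with edgeR's quasi-likelihood test over the 22558 loci of the whole table that passed a filter on low counts. This kept 1311 members, 52.1% of them, and 17064 loci of the rest, 50.3%. Calls required a Benjamini-Hochberg adjusted p of 0.01 or less and a log2 fold change of 2 or more in size. The common dispersion, edgeR's measure of spread between replicates, was 0.685. With this spread and 2 libraries per genotype, a locus that was not called may still have differed. Fold changes of single end loci are drawn against abundance in the plot of the 3 comparisons.

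**Figure D4:**
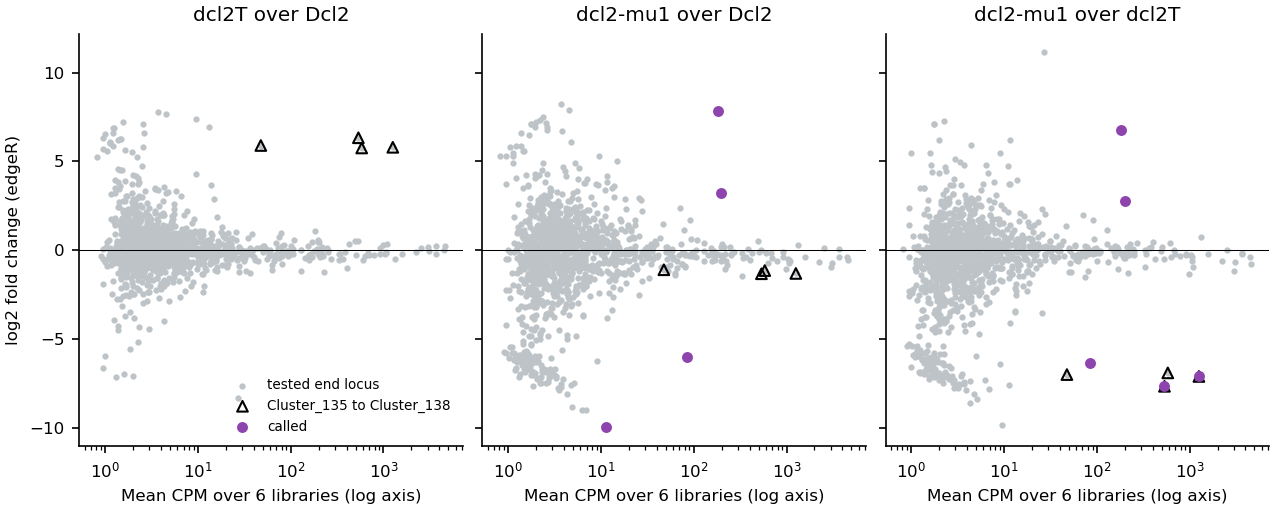
Fitted log2 fold change (edgeR) against mean CPM over the 6 libraries (log axis) for the 1311 tested end loci, in dcl2T over Dcl2 (left), dcl2-mu1 over Dcl2 (middle) and dcl2-mu1 over dcl2T (right); purple points are called, and open triangles are Cluster_135 to Cluster_138. Spread is wide at a few CPM and narrow among abundant loci, from which the called loci and the triangles stand out.

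Between dcl2T and Dcl2, edgeR called 0 members lower and 0 higher. Background rates over all tested loci were 0.00887% lower and 0.0177% higher, that is 2 and 4 of 22558 loci. At an unadjusted p under 0.05, 18 members (1.37%) were lower in dcl2T and 32 (2.44%) were higher, beside 1.92% and 2.14% of all tested loci and 1.86% and 2.1% of the rest. DESeq2, run as the other tool, gave an adjusted p for 623 members and called 0 of them lower and 7 higher (1.12%), 4 of the 7 being Cluster_135 to Cluster_138. It called 0.759% lower and 0.537% higher of the 9875 loci for which it gave an adjusted p, and 0.816% and 0.421% of those in the rest. Both dcl2T libraries lay above both Dcl2 libraries at 376 members, 28.7%, close to the 27.5% of all tested loci, and below them at 137 members, 10.5%, against 11.9% of all. The median log2 fold change was 0.08 at the ends, 0.08 in the rest and 0.07 over all tested loci. These values moved together with the scaling, to 0.26, 0.25 and 0.25 with library size alone and to 0.02, 0.01 and 0.01 with RLE factors.

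In dcl2-mu1 against Dcl2, 2 members were called lower and 2 higher, 0.153% of those tested in either direction. These shares compare with 0.186% lower and 0.235% higher over all tested loci, and so lie near that background. Shares in the rest were 0.105% and 0.234%. With no adjustment, p was under 0.05 at 113 members lower in dcl2-mu1 (8.62%) and 67 higher (5.11%), beside 10.4% and 5.09% of all tested loci and 9.25% and 5.18% of the rest. By DESeq2, 13 of 796 members were called lower (1.63%) and 11 higher (1.38%), below the 3.22% and 2.13% of all loci with an adjusted p and the 2.65% and 2.19% of the rest. Both dcl2-mu1 libraries lay below both of Dcl2 at 258 members, 19.7%, and above them at 300, 22.9%, beside 22.7% and 20.6% of all. The middle of the distribution was shifted slightly downwards, with a median log2 fold change of -0.17 at the ends, -0.26 in the rest and -0.30 over all tested loci. With library size alone as the scaling these medians became 0.15, 0.05 and 0.02, so their sign depends on the scaling, and the difference between ends and rest stayed at about the same size.

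Against dcl2T, dcl2-mu1 had 3 members called lower, 0.229%, and 2 higher, 0.153%, beside 0.199% and 0.164% over all tested loci. Of the tested loci in the rest, 0.111% were called lower and 0.152% higher. The comparison uses the same dcl2-mu1 libraries as the one before, and 3 loci were called in both. At an unadjusted p under 0.05, 130 members were lower in dcl2-mu1 (9.92%) and 46 higher (3.51%), beside 9.94% and 3.37% of all tested loci. Corresponding shares of the rest were 8.66% and 3.33%. The libraries lay apart, with dcl2-mu1 lower at 370 members (28.2%) and higher at 255 (19.5%), against 29.7% and 17.8% of all. Median log2 fold changes were -0.22 at the ends, -0.34 in the rest and -0.37 over all, and -0.08, -0.20 and -0.22 with library size alone. DESeq2 called 14 of 655 members lower (2.14%) and 9 higher (1.37%), beside 2.4% and 1.85% of all loci with an adjusted p. Among members, 458 (18.2%) were without a read in dcl2-mu1 pollen, against 20.1% of the rest. For dcl2T, the share was 1.79% at the ends and 1.93% in the rest, and for Dcl2 it was 6.40% and 6.75%. Such members met the read minimum through the other genotypes alone, and the shallowest library was one of dcl2-mu1. These shares therefore do not measure a response to genotype. Of the members without a read, 7 averaged at least 5 CPM over the 6 libraries for dcl2-mu1, 2 for dcl2T and 1 for Dcl2.

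Abundant end loci varied less than sparse ones. Among the 104 members of at least 50 CPM, the log2 fold change of dcl2T over Dcl2 lay within 1 of 0 at 97, 93.3%, and among abundant loci of the rest at 91.1%. For dcl2-mu1 over Dcl2 it did so at 89 members, 85.6%, and at 78.4% of the rest. For dcl2-mu1 over dcl2T it did so at 87 members, 83.7%, and at 84.7% of the rest, so the order of ends and rest differed between comparisons. Across these loci, the log2 CPM values of both libraries of 1 genotype had a correlation of 0.953 for dcl2-mu1, 0.974 for dcl2T and 0.962 for Dcl2. In the rest the values were 0.845 for dcl2-mu1, 0.924 for dcl2T and 0.945 for Dcl2. Across the 1311 tested members of any abundance they were lower, 0.708 for dcl2-mu1, 0.863 for dcl2T and 0.789 for Dcl2. All of these are Pearson's r across loci, which are not independent replicates.

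The 4 loci called between dcl2-mu1 and Dcl2 lay at ends of 4 different chromosomes. Cluster_31773 (chr3:237450363-237460483), a locus of 10121 bp and 3812 kb from the far end of chromosome 3, was nearly lost in dcl2-mu1. It had 2.56 and 1.71 CPM in dcl2-mu1, 132.4 and 161.8 CPM in dcl2T, and 97.3 and 112.9 CPM in Dcl2. The dcl2-mu1 libraries lay far below all others, and dcl2T was above Dcl2 by a smaller margin that did not pass the test. The log2 fold change of dcl2-mu1 was -6.00 ± 0.42 (SE) over Dcl2, with an edgeR adjusted p of 0.000277, and -6.32 ± 0.42 over dcl2T, with 0.000232. The second call held in all 17 alternative fits. The first was lost without Dcl2 replicate 1 or 2, at adjusted p of 0.0189 and 0.0196.

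Cluster_117 (chr1:2668504-2669000), a short locus of 497 bp, had 0 reads in both dcl2-mu1 libraries. It had 6.43 and 5.69 CPM in dcl2T pollen and 28.2 and 28.0 CPM in Dcl2, so the 3 genotypes did not overlap. A count of 3 over both dcl2-mu1 libraries would be 0.497 CPM, which makes the locus at least 56.6-fold lower in dcl2-mu1 than in Dcl2 (edgeR adjusted p = 0.00590). The call was lost without dcl2-mu1 replicate 1, at an adjusted p of 0.0107, and without Dcl2 replicate 1 or 2, at 0.115 and 0.102. It was also lost with a filter of 5 CPM in 2 libraries, at 0.0105, and with thinned counts, at 0.0160. In dcl2T it was 4.64-fold lower than in Dcl2 and did not pass the test, with an adjusted p of 0.547.

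Cluster_78801 (chr9:162314689-162316999), 749.7 kb from the far end of chromosome 9, was the opposite case, abundant in dcl2-mu1 alone. Its CPM was 656.9 and 434.4 in dcl2-mu1, 3.67 and 4.67 in dcl2T, and 1.26 and 2.28 in Dcl2. Both dcl2-mu1 libraries lay far above every other. That dcl2T lay above Dcl2 rests on 16 and 23 reads against 5 and 10, and this difference did not pass the test. The log2 fold change of dcl2-mu1 was 7.85 ± 0.45 (SE) over Dcl2, with an edgeR adjusted p of 9.8e-05, and 6.78 ± 0.42 over dcl2T, with 0.000172. Only the first was lost when a library was left out, Dcl2 replicate 1 or 2, at adjusted p of 0.0204 and 0.0196.

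Cluster_57956 (chr7:4791177-4797404), 6228 bp long and close to the 5-Mb line, was also higher in dcl2-mu1 but well populated in all genotypes. It had 572.3 and 417.5 CPM in dcl2-mu1, 67.5 and 55.3 CPM in dcl2T, and 39.3 and 41.7 CPM in Dcl2, without overlap. The log2 fold change of dcl2-mu1 was 3.22 ± 0.32 (SE) over Dcl2, with an edgeR adjusted p of 0.00198. Over dcl2T it was 2.77 ± 0.32, with 0.00494. Against Dcl2 the call was lost without Dcl2 replicate 1 or 2, at adjusted p of 0.109 and 0.104. Against dcl2T it was lost without any one of the 6 libraries, at adjusted p from 0.0107 to 0.0818. With TMM over all loci, with only the 2 genotypes compared and in a test against a 2-fold change it missed the threshold as well, at 0.0105 to 0.0200.

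**Figure D5:**
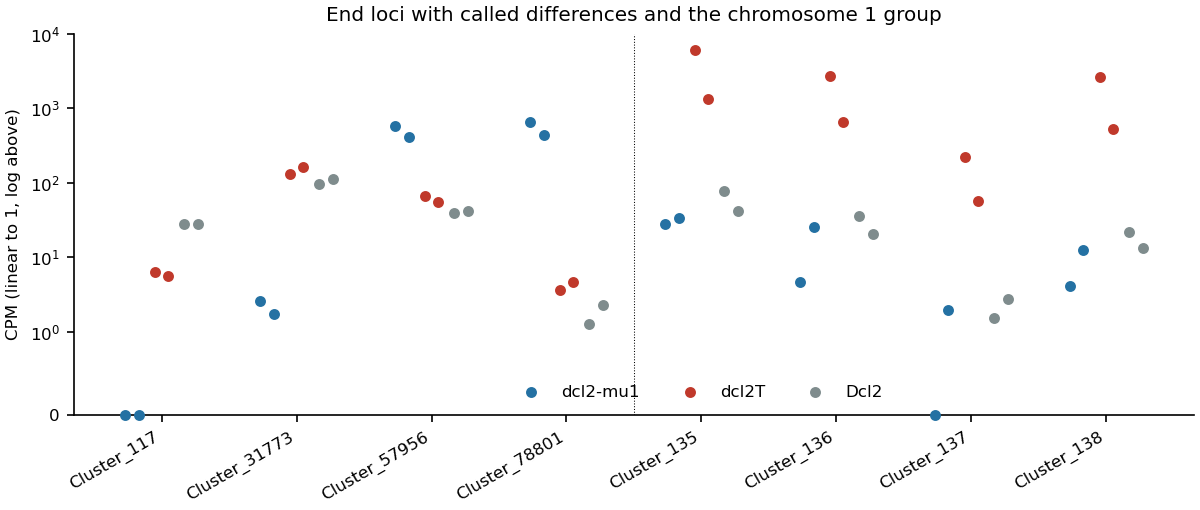
CPM in each library (linear to 1, log above) at the 4 loci called in dcl2-mu1 against Dcl2, left of the dotted line, and at the group of 4 loci on chromosome 1, right of it; blue is dcl2-mu1, red dcl2T and grey Dcl2. Cluster_117 is at 0 in both dcl2-mu1 libraries, Cluster_78801 is at 656.9 and 434.4 CPM in dcl2-mu1 only, and in the chromosome 1 group the 2 dcl2T libraries lie above all others and 4.55 times apart in sum.

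The widest difference between dcl2T and Dcl2 at any end came from Cluster_135 to Cluster_138 on chromosome 1. These 4 loci follow each other without another locus between them over 20.9 kb, from chr1:2829843-2832703 for Cluster_135 to chr1:2849386-2850706 for Cluster_138, with gaps of 1.08 to 6.16 kb. Together they had 36.9 and 74.2 CPM in dcl2-mu1, 11669 and 2563 CPM in dcl2T, and 137 and 78.5 CPM in Dcl2. Both dcl2T libraries lay above the other 4, and dcl2-mu1 lay below Dcl2. In sum dcl2T was 66.1 times as high as Dcl2, but replicate 1 was 4.55 times replicate 2, so the mean of 7116 CPM has an SD of 6439 (n = 2).

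The group was dominated by Cluster_135, and the shares of its members were alike in both dcl2T libraries. Cluster_135 held 51.9% and 51.4% of the summed CPM in dcl2T, and 56.2% and 53.9% in Dcl2. Cluster_136 held 23.5% and 25.9% in dcl2T, and 26.5% and 25.8% in Dcl2. The smallest, Cluster_137, held 1.91% and 2.24% in dcl2T. The library that was higher was thus higher at all 4 loci in about the same proportion.

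Cluster_135 itself had 28.2 and 34.0 CPM in dcl2-mu1, 6060 and 1318 CPM in dcl2T, and 76.9 and 42.3 CPM in Dcl2. Its log2 fold change of dcl2T over Dcl2 was 5.80 ± 0.77 (SE), short of the threshold at an edgeR adjusted p of 0.0491. Without dcl2T replicate 2 the adjusted p was 0.000519, and DESeq2 gave 1.30e-15. It passed in 5 of 17 alternative fits, in which the adjusted p ranged from 5.38e-55 without a filter to 1. For dcl2-mu1 over dcl2T the log2 fold change was -7.10 ± 0.82 (edgeR adjusted p = 0.00530), a call lost without dcl2-mu1 replicate 1 or 2, at 0.0668 and 0.0237, and without Dcl2 replicate 1 or 2, at 0.0445 and 0.0443. That call held in 10 of 17 alternative fits.

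Cluster_138 had 4.10 and 12.7 CPM in dcl2-mu1, 2643 and 524 CPM in dcl2T, and 22.2 and 13.2 CPM in Dcl2. Its log2 fold change was 6.33 ± 0.94 (SE) for dcl2T over Dcl2, with an edgeR adjusted p of 0.0930, and -7.65 ± 1.01 for dcl2-mu1 over dcl2T, with 0.00911. The second was lost without either dcl2-mu1 or either Dcl2 library, at adjusted p from 0.0209 to 0.0779, and held in 8 of 17 alternative fits. For dcl2T over Dcl2, Cluster_138 passed without dcl2T replicate 2, at 0.00190. Cluster_136 (chr1:2833787-2836415) and Cluster_137 (chr1:2841132-2843221) had log2 fold changes of 5.76 ± 1.00 and 5.90 ± 1.02 for dcl2T over Dcl2, both with an edgeR adjusted p of 0.138. Cluster_136 and Cluster_137 were called by DESeq2, at adjusted p of 0.000441 and 3.83e-09, and by edgeR without a filter, at 5.28e-40 and 9.5e-13, and missed the threshold in the other 15 alternative fits. Cluster_136 and Cluster_137 were named after their values were seen, as neighbours of the called loci. The position of this group relative to the *mexicana* segments of the dcl2T lineage was not tested, since the sources used here do not give the build of the table.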

How the data were processed

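Per the study's methods, the authors trimmed the small RNA reads with cutadapt, removed short identifier bases, filtered structural RNA with bowtie2, and grouped the aligned reads into loci with ShortStack under a minimum abundance. The deposited table holds raw read counts by locus and library, not normalized. Genome build and collapsing by identifiers are not given in the sources used here, and reads that align equally well in several places may be shared between loci. Columns were matched to samples by name.

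CPM was taken relative to the full count total of each library. Loci were kept by filterByExpr (minimum count 10, minimum total 15), scaled with TMM factors and fitted with 1 coefficient per genotype in edgeR 4.0.16 under R 4.3.3, on all 6 libraries. DESeq2 1.42.0 served as an alternative. Calls needed an adjusted p of 0.01 or less and a log2 fold change of 2 or more in size. Standard errors are approximate, from the fold change over the root of the F statistic. The procedure was also run on simulated counts, and no outcome of that run is given here. The floor for a count of 0 was 3 counts over the 2 libraries of a genotype. The sample titles only number the replicates. The study's methods call those of dcl2T and dcl2-mu1 biological. Its reporting form gives 2 or more biological replicates per experiment, genome assembly excepted.

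Named loci were up to 12 called members per comparison and direction without overlap between libraries, the 8 most abundant members, the most abundant and the outermost member of each end, and loci at the 5-Mb line. Members and lists were chosen with earlier results of these data known. Windows of 5 Mb over the rest and the removal of single loci from the sums of an end were added after the data were seen. Chromosomes 5 and 10 are outside the rule and were left out. Alternatives were other scalings, filters, thresholds, windows and read minimums, a replicate block, and each library or chromosome left out. Python 3.11.15 with numpy 2.4.6 and pandas 2.3.3 was used for these steps.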

Additional observations from a re-analysis of the deposited data

How the results depend on the processing

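The end-to-rest ratio of density, 1.55, was 1.37 with windows of 2 Mb, 1.44 with at least 1 read, 1.68 with at least 50 reads and 1.47 without chromosome 4. Median length at the ends, 1270 bp, was 1013 bp with at least 1 read and 1815 bp with at least 50, and the ratio of median CPM, 1.08, was 1.17 with at least 1 read. The share of dcl2T over Dcl2, 1.26, was 1.09 and 1.13 with windows of 2 and 10 Mb, 1.13 without chromosome 8, 1.12 without the 10 most abundant loci and 1.15 without Cluster_135 to Cluster_138, the last chosen after seeing the data. That of dcl2-mu1 over Dcl2, 1.01, was 1.05 with 10 Mb, 1.06, 1.07 and 0.935 without chromosome 3, 4 or 8, and 0.959 without the 10 loci. That of dcl2-mu1 over dcl2T, 0.802, was 0.917 and 0.926 with 2 and 10 Mb, and 0.880 without Cluster_135 to Cluster_138. The cause of these moves was not tested.

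Members called lower in dcl2T than Dcl2 numbered 0, and 2 without a filter; those higher numbered 0, and 1 with library size alone, 7 with DESeq2, 7 without a filter and 1 at an FDR of 0.05 and a log2 fold change of 1. For dcl2-mu1 over Dcl2 the 2 lower became 13 with DESeq2, 8 without a filter, 1 with 5 CPM in 2 libraries, 1 with thinned counts, and 0 and 5 with windows of 2 and 10 Mb; the 2 higher became 11, 6, and 1 and 5 with DESeq2, no filter and those windows, and 7 at the looser threshold. For dcl2-mu1 over dcl2T the 3 lower became 5 with library size alone, 14 with DESeq2, 15 without a filter, 1 with 5 CPM in 2 libraries, 1 with only the 2 genotypes compared, 1 with thinned counts, 0 and 6 with the windows and 8 at the looser threshold. The 2 higher became 1 with TMM over all loci, 9 with DESeq2, 7 without a filter, 1 with only the 2 genotypes compared, 1 in a test against a 2-fold change, and 1 and 4 with the windows.

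With each replicate left out in turn, members lower and higher in dcl2T than Dcl2 ranged from 0 to 0 and 0 to 2, in dcl2-mu1 than Dcl2 from 0 to 2 and 0 to 2, and in dcl2-mu1 than dcl2T from 1 to 5 and 1 to 1. A single remaining library is then assumed to vary like the other genotypes. The density ratio ranged from 1.55 to 1.60, that of median CPM from 1.06 to 1.09, and the shares from 1.19 to 1.32, 0.976 to 1.04 and 0.761 to 0.850 in the order above. The median log2 fold change at the ends minus that of the rest was 0.01 for dcl2T over Dcl2 and ranged from -0.036 to 0.075, 0.09 for dcl2-mu1 over Dcl2 from 0.016 to 0.435, and 0.13 for dcl2-mu1 over dcl2T from 0.061 to 0.468, the highest 2 without dcl2-mu1 replicate 2. With a replicate block, 2 members were higher in dcl2T than Dcl2 and 6 lower in dcl2-mu1 than dcl2T. The labels do not pair samples by number, and same-numbered libraries did not deviate together (r = -0.012, 0.004 and -0.008 across loci). Library size alone raised the median over all loci to 0.25 for dcl2T over Dcl2, from 0.07. Low counts limit the sparse loci: only 52.1% of members could be tested.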
